A study of Mus musculus with 8 samples.

Results

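The genes of the renin-angiotensin system were examined in the nucleus accumbens (NAc) of mice with and without maternal separation (MS). They were taken by name, as every probe of Agilent arrays whose gene name was Agt, Ace, Agtr1a, Agtr2, Ren1, Atp6ap2, Lnpep, Mas1 or Enpep, which gave 10 probes for 9 genes among the 55681 probes of the array. Mas1 had 2 probes and each of the other genes had 1. The set was selected on the measured difference of Agt between the groups of these same mice, and the study also lists Agt among its changed genes. The differences between MS and control mice of these genes are therefore given as a description, with the standard error (SE) and without a test.

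All mice were adult males of the inbred strain C3H/HeN. In the MS group (4 mice), litters were separated daily between postnatal days 2 and 14, and the dams went through unpredictable stress. The 4 control mice stayed with undisturbed dams, and pups of both groups were weaned on postnatal day 21. All had worked for sweet milk in operant cages as adults and were food deprived before the NAc was punched from frozen brain slices, in both groups. In each group, 3 mice shared the first part of their individual number, and the labels do not say what it stands for. If those mice were siblings, the errors given here could be too small. Cy3-labelled cRNA from 40 ng of total RNA was hybridised on 1 array per mouse.

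The renin-angiotensin system is a cascade of peptides. Angiotensinogen, the product of Agt, is cut by renin (Ren1), and the product is turned into angiotensin II by the converting enzyme Ace. Angiotensin II acts on the receptors encoded by Agtr1a and Agtr2, aminopeptidases such as Enpep and Lnpep trim or bind it and its fragments, and Mas1 is a receptor for a shorter fragment with often opposite actions. Atp6ap2 binds prorenin and is also an accessory part of the proton pump of vesicles. In the brain Agt is made mainly by astrocytes, more by those of the diencephalon and brainstem than by those of the telencephalon, and Ace is abundant in striatal projection neurons.

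The substrate and the enzyme that starts the cascade were each read by a single probe of 60 bases, and the results on them rest on these letters. The Agt probe lies on the minus strand at chr8:127083142-127083201 and the Ren1 probe on the plus strand at chr1:135250782-135250841 (build mm9, from the array headers). Both are shown 5′ to 3′ as designed, in lower case since no base is singled out.
Agt: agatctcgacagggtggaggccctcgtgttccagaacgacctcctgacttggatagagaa
Ren1: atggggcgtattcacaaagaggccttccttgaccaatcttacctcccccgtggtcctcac
In each of these probes 2 of the 3 reading frames held no stop codon, and 55% of the bases were G or C. The Agt probe starts at base 1087 of its transcript and the Ren1 probe at base 202. The position of exons and untranslated regions was not annotated here.

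Level is the log2 processed signal of a probe minus the 75th percentile of its array, so that a level of 0 equals that percentile. Between 57.7% and 61.2% of the probes were well above background on the MS arrays and between 57.3% and 69.7% on the control arrays, with the highest share in control 4. A probe was tested if it stood above background on 4 or more of the 8 arrays (33111 probes), which kept 8 of the 10 renin-angiotensin probes and 7 of the 9 genes. Over all tested probes the median difference between groups was 0.00. Only 1 probe, that of the transcription factor gene Lhx5, passed the threshold of limma after Benjamini-Hochberg adjustment, which is 0.00302% of the tested probes. This count depended on the processing, and it was 375 in the deposited values, 486 with normexp and 504 with trend and robust moderation. The values of the 4 MS and 4 control mice did not overlap in 4.91% of tested probes that were lower in MS mice and in 3.76% that were higher.

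Agt, the precursor of all angiotensins, was the renin-angiotensin gene with the widest gap between groups. Its processed signal was 63.2, 41.0, 73.8 and 77.2 in MS mice 1 to 4, against 244, 181, 167 and 427 in control mice 1 to 4. On the log2 scale this was a level of -2.34, -3.27, -2.36 and -2.31 in MS mice, against -0.64, -0.81, -0.82 and -0.01 in control mice. Every MS mouse was below every control mouse, with a gap of 1.49 between the highest MS and the lowest control level, and the probe was above background on all 8 arrays. The level averaged -2.57 ± 0.47 in MS mice and -0.57 ± 0.38 in control mice (SD, n = 4 each). The difference was -2.0 (SE 0.26), so that the geometric mean of MS mice was 25% of that of control mice. Of all tested probes, 17 (0.0513%) had a more negative difference.

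The gap in Agt was present in each part of the slide. Within the 2 rows of the slide, which each held 2 MS and 2 control arrays, the difference was -2.08 and -1.92. Within its 4 columns, which held 1 array of each group, it was -1.72, -1.52, -1.50 and -3.26. The last of these columns held MS 2, the mouse with the lowest Agt level, and control 4, the mouse with the highest. Without MS 2 the difference was -1.77, and without control 4 it was -1.81. In the values deposited by the authors, from which no background was subtracted, Agt averaged 6.47 in MS mice and 8.0 in control mice, a difference of -1.53 without overlap. With the normexp background method it was -1.30.

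**Figure D1:**
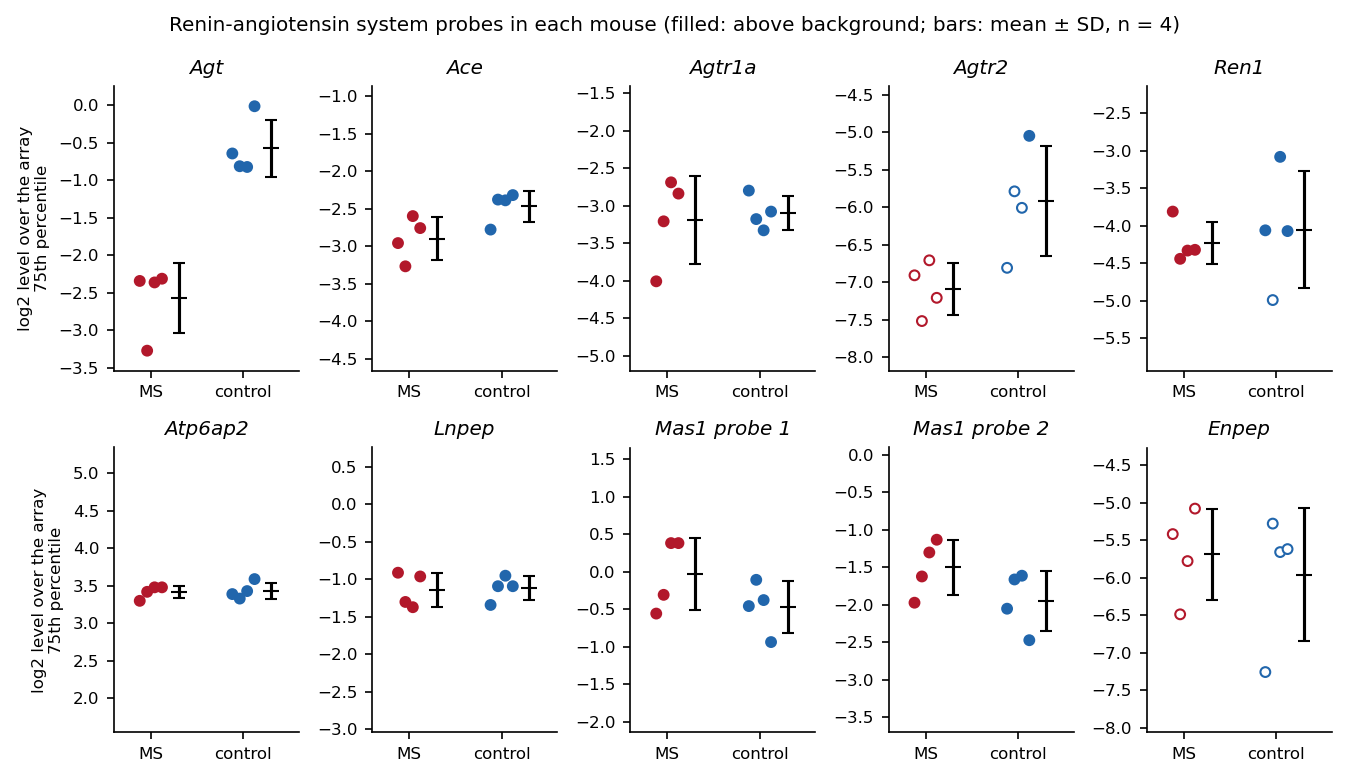
Log2 level over the 75th percentile of the array (y axes, each with its own range) of the 10 renin-angiotensin probes in MS and control mice (x axes). Points are mice, filled where the probe was above background, and bars the mean ± SD (n = 4). For Agt the MS mice span -3.27 to -2.31 and the control mice -0.82 to -0.01, while the groups overlapped for the other 9 probes.

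Of the enzymes that act on angiotensinogen and angiotensin I, Ace was lower on average in MS mice and Ren1 was near its detection limit. The Ace probe (chr11:105850398-105850457) had a level of -2.96, -3.27, -2.60 and -2.76 in MS mice, against -2.78, -2.38, -2.39 and -2.32 in control mice. The groups overlapped through control 1, whose level was below that of 2 MS mice, while the other 3 control mice were above every MS mouse. The mean was -2.90 ± 0.29 in MS mice and -2.47 ± 0.21 in control mice (SD, n = 4 each), a difference of -0.43 (SE 0.16). The rows of the slide gave a difference of -0.54 and -0.33. The columns gave 0.18, -0.57, -0.39 and -0.95, and the sign was thus turned in 1 of them. It was -0.25 in the deposited values.

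Ren1, which encodes renin, was above background on 4 of 4 MS arrays and 3 of 4 control arrays. Its levels of -3.81, -4.44, -4.33 and -4.32 in MS mice lay inside the range of the control mice, which was -4.06, -4.99, -3.08 and -4.07. The lowest value belonged to control 2, where the probe was not above background, and the highest to control 3. The difference was -0.17 (SE 0.35), and leaving out control 3 turned it to 0.15. Its direction also differed between the rows of the slide, at 0.40 and -0.75. Mice of some strains carry a second, closely similar renin gene, Ren2, and the array had a probe for it whose position in mm9 is not given. The level of the probe named Ren2 averaged -3.77 ± 0.18 in MS mice and -3.95 ± 0.24 in control mice (SD, n = 4 each). Whether C3H/HeN mice carry Ren2 was not examined here, and the 2 genes share most of their sequence. What either probe read is therefore uncertain, and these values are not taken as a level of Ren2.

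The receptors of angiotensin II gave little signal. Agtr1a (chr13:30474638-30474697), the receptor behind most known actions of angiotensin II, had a level of -4.01, -3.21, -2.69 and -2.84 in MS mice, against -2.80, -3.18, -3.33 and -3.08 in control mice. The MS mice held both the lowest and the highest value, and the difference was -0.09 (SE 0.27). It turned to 0.19 without MS 1, the mouse with the lowest level, and to 0.01 without control 1. It was -0.62 in the first row of the slide and 0.44 in the second.

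Agtr2 (chrX:21065564-21065623), the other receptor, was above background on 0 of 4 MS arrays and on 1 of 4 control arrays. Its processed signal lay between 2.15 and 3.61 in MS mice and between 3.38 and 13.0 in control mice, and the array that detected it was control 4, which also had the highest share of probes above background. The mean of the control arrays was below the lowest signal that counted as well above background on the MS arrays, so no fold between groups can be given.

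Mas1, the receptor of the counter-acting branch, was on average higher in MS mice, but the groups overlapped. Its first probe (chr17:13033943-13034002, minus strand) had a level of -0.56, -0.31, 0.38 and 0.38 in MS mice, against -0.46, -0.11, -0.38 and -0.94 in control mice. The second probe (chr17:13033918-13033977) shares 35 bases with the first on mm9. It had a level of -1.97, -1.62, -1.30 and -1.13 in MS mice, against -2.05, -1.66, -1.61 and -2.47 in control mice. On both probes MS 3 and MS 4 were the highest of all mice and control 4 the lowest, and MS 1 and MS 2 lay within the control range.

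The difference was 0.44 on each Mas1 probe (SE 0.26 and 0.24), which is 1.36-fold. The levels of both probes followed each other over the 8 mice (Pearson r = 0.94), as a description, since the probes overlap and were read in the same RNA. The first row of the slide gave -0.16 and 0.06 for the 2 probes and the second row gave 1.04 and 0.83, so the size of the difference was not the same in both rows. Without control 4 the difference of the first probe was 0.28, and without MS 3 it was 0.30.

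The remaining members are peptidases or pump parts with roles outside the cascade. Atp6ap2 (chrX:12193624-12193683) had the smallest spread between mice of the renin-angiotensin probes, with a within-group SD of 0.10, against a median of 0.16 over all tested probes. Its levels lay between 3.30 and 3.48 in MS mice and between 3.33 and 3.59 in control mice, and the difference was -0.01 (SE 0.08). Lnpep (chr17:17665232-17665291, minus strand), a peptidase of insulin-regulated vesicles that binds angiotensin IV, lay between -1.37 and -0.91 in MS mice and between -1.34 and -0.95 in control mice. Its difference was -0.02 (SE 0.13). Enpep (chr3:128972910-128972969, minus strand), which removes the first residue of angiotensin II and is known from the walls of small vessels, was above background on 0 of 8 arrays. Its processed signal reached 11.3 in MS mice and 8.75 in control mice, and it gives no comparison.

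Across the cascade, the median difference of the 8 tested probes was -0.05, with Agt and both Mas1 probes among them. Of the 8, 1 did not overlap between groups, which was Agt, the gene that the choice rested on. Of all tested probes, 4.91% were lower and 3.76% higher without overlap. Except for Atp6ap2, every tested renin-angiotensin probe varied more between mice of a group than the median tested probe. This comparison was not matched for level. Atp6ap2 was the only one of them with a mean level above 0 (3.42 in MS mice and 3.43 in control mice). The within-group SD was 0.58 for Ren1, 0.45 for Agtr1a, 0.43 for Agt, 0.42 and 0.39 for Mas1, 0.25 for Ace and 0.20 for Lnpep. The SE of Ren1 (0.35) and Agtr1a (0.27) leaves room for a difference as large as that of Ace in either of them, which was not detectable with 4 mice per group.

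The other genes of the pathway were taken from a list of 40 peptidases, receptors, receptor partners, kinin genes and partners of Atp6ap2 and Lnpep. Of these, 31 were tested, and 0 passed limma's threshold in either direction (smallest adjusted p = 0.148). Without adjustment, 6 of them were lower at p under 0.05 (19.4%, against 7.71% of all tested probes) and 1 was higher (3.23%, against 6.35%). Their median difference was 0.04, and 14 were negative and 17 positive. In 4 of the 31 the groups did not overlap, all lower in MS mice, against 4.91% of all tested probes. These were Mmel1, Ctsd, Atp6ap1 and Slc2a4. Higher without overlap were 0, against 3.76% of all tested probes.

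Mmel1, a membrane peptidase related to neprilysin, had the smallest p of the list. Its level was -1.16, -1.32, -0.94 and -1.52 in MS mice, against -0.54, -0.79, -0.80 and -0.27 in control mice. The difference was -0.64 (SE 0.16, limma adjusted p = 0.148), and it was -0.69 (SE 0.14) on a second probe. The study lists Mmel1 among its changed genes, so it is not independent evidence. It passed the threshold with normexp (adjusted p = 0.0342), in the deposited values (0.0426) and with trend and robust moderation (0.0427).

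Slc2a4, the insulin-regulated glucose transporter that travels in the same vesicles as Lnpep, was next. Its level was -0.52, -0.80, -1.24 and -0.78 in MS mice, against -0.12, -0.39, 0.13 and -0.38 in control mice. The difference was -0.65 (SE 0.17, limma adjusted p = 0.168), and with normexp it was -0.52 and passed (adjusted p = 0.0453). The other vesicle partners of Lnpep differed by 0.10 (Sort1, SE 0.15), -0.01 (Vamp2, SE 0.12) and 0.12 (Tbc1d4, SE 0.12).

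Ctsd, the lysosomal protease cathepsin D, which can cut angiotensinogen in vitro, had levels between 4.63 and 4.84 in MS mice and between 4.87 and 4.99 in control mice. The difference was -0.21 (SE 0.07, limma adjusted p = 0.251) and -0.31 (SE 0.10) on its other probe. Prcp, a carboxypeptidase that shortens angiotensin II, had the only positive difference with p under 0.05 before adjustment, 0.23 (SE 0.09, limma adjusted p = 0.303), but its other tested probe gave 0.06 (SE 0.07).

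Of the proton pump genes that work with Atp6ap2, 6 of 7 were negative, the median was -0.12 and none past limma's threshold. The negative ones were largest for 5 genes, at -0.21 (Atp6v1h, SE 0.09), -0.16 (Atp6ap1, SE 0.07), -0.15 (Atp6v1b2, SE 0.08), -0.12 (Atp6v0c, SE 0.07) and -0.09 (Atp6v1a, SE 0.08). Atp6v0a1 differed by 0.09 (SE 0.07) on its brightest probe and by 0.41 (SE 0.18) on its other one. Of the 8 partners of the angiotensin receptors, 6 had a positive difference and 2 a negative one, Agtrap at -0.25 (SE 0.10) and Arrb2 at -0.23 (SE 0.09). Among the positive ones, Plcb1 differed by 0.19 (SE 0.14) on its brightest probe and by 0.30 (SE 0.12) and 0.28 (SE 0.10) on the others, and Mtus1 by 0.10 (SE 0.08), with 0.39 (SE 0.20) and 0.00 (SE 0.15) on the others. The kinin branch, whose peptides are broken down by Ace, was not measurable. Its genes Bdkrb1, Bdkrb2 and Kng2 were above background on 0 of 8 arrays, and Kng1 reached 1 of 8. The same held for Cma1 and Ctsg, which are proteases of mast cells and neutrophils, and for the receptor gene Mrgprd, at 0 of 8 arrays, while Agtr1b reached 1 of 8. The array had no probe named Ace3.

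**Figure D2:**
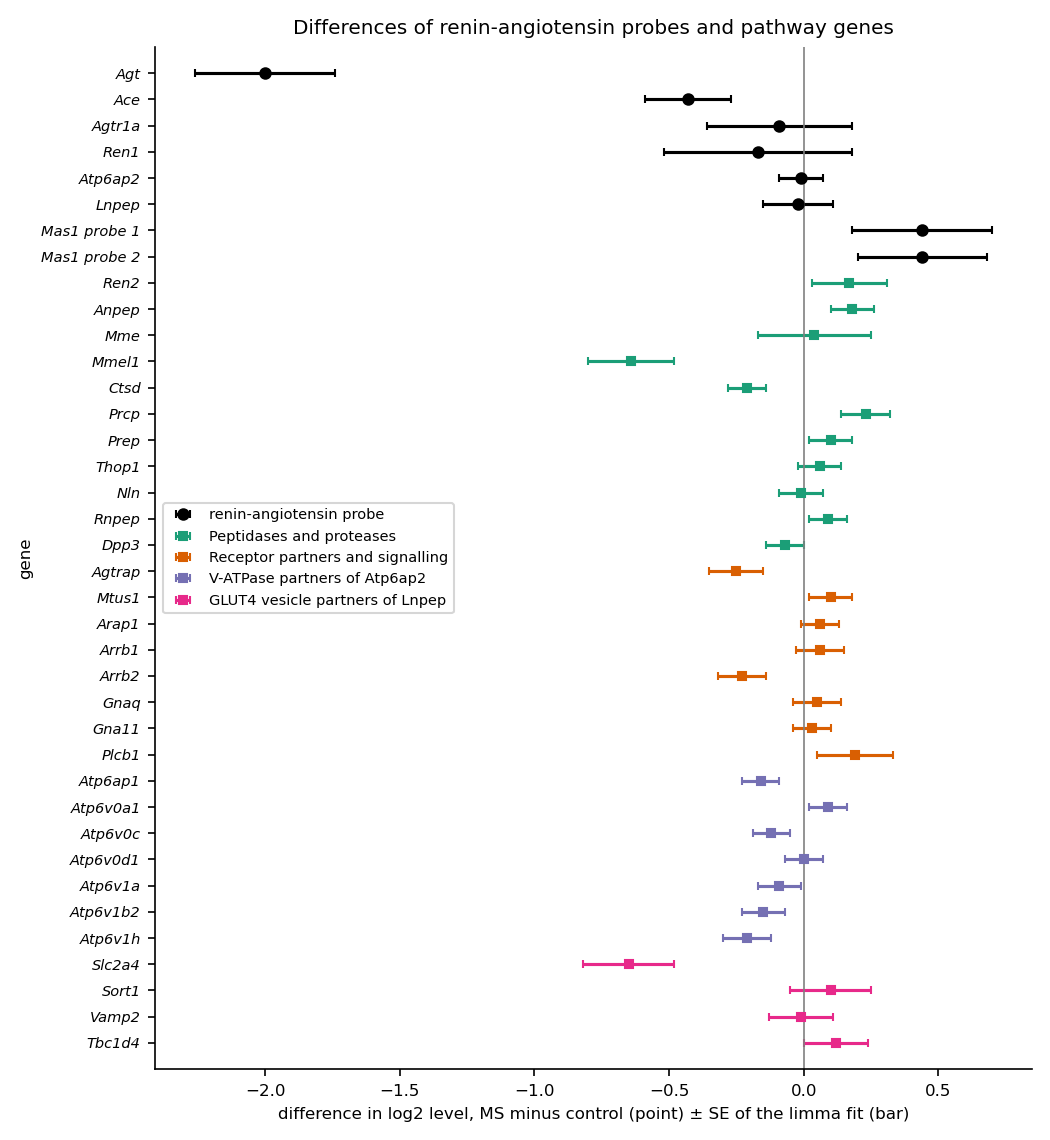
Difference in log2 level, MS minus control (x axis, points, with bars for the SE of the limma fit), for the 8 tested renin-angiotensin probes and 30 other tested pathway genes (y axis, coloured by list). Agt lies at -2.0, Mmel1 and Slc2a4 at -0.64 and -0.65, and the other pathway genes shown between -0.25 and 0.23.

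Since Agt is a gene of astrocytes, markers of astrocytes and of other cells that a punch could hold were read in the same mice. In such bulk tissue, fewer cells of a type and less RNA per cell cannot be told apart. For each list the linear levels of its tested genes were summed per mouse, in multiples of the 75th percentile of the array, and the groups were compared with an exact permutation test (two-sided, 70 arrangements, smallest possible p = 0.0286). None of the 9 lists passed after adjustment over the lists. Even the smallest possible p had an adjusted p of 0.103, so passing was hardly possible with these 8 mice, and nothing is concluded from it. The 9 include the lists of astrocytes outside the telencephalon and of pallidal and basal forebrain neurons. Their genes were taken with their differences known, and they also enter the adjusted p of the other lists. The markers of medium spiny neurons, the main neurons of the NAc, were all detected, and 10 of 10 were higher in sign in MS mice (median difference 0.35). Their sum lay between 848 and 1020 in MS mice and between 590 and 918 in control mice, a log2 difference of 0.29 (exact p = 0.0571, adjusted p = 0.103). The sum of 590 was that of control 4, and without this mouse the difference was 0.16.

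The genes listed for astrocytes outside the telencephalon were lower in the same mice as Agt. Whether other cells of the punch also express them was not examined. In this list of 4 genes, 4 were lower in MS mice without overlap, against 4.91% of all tested probes. The sum was 96.1 to 110 in MS mice and 175 to 216 in control mice, a log2 difference of -0.86. The differences were -1.27 for Itih3 (SE 0.14), a hyaluronan-binding secreted protein, and -1.01 for Slc6a11 (SE 0.20), a GABA transporter. Sparc, a matrix protein, differed by -0.88 (SE 0.09), and the glycine transporter Slc6a9 by -0.51 (SE 0.09). Sparc was by far the brightest of the 4 (mean level 6.39 in MS mice and 7.27 in control mice), so the sum mostly followed this gene. Within the rows of the slide the sum differed by -0.81 and -0.92. The genes of this list were taken with their differences in these mice known, so these values are a description and carry no test.

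General astrocyte markers moved less. Of 16 genes, 5 were lower without overlap, against 4.91% of all tested probes. The 16 genes had a median difference of -0.16, and 12 of them were negative. Their sum was 356 to 389 in MS mice and 386 to 450 in control mice, a log2 difference of -0.16 (exact p = 0.0571, adjusted p = 0.103). Lower without overlap were Ednrb, an endothelin receptor, by -0.61 (SE 0.12), and Ntsr2 by -0.42 (SE 0.08). So were Aldh1l1 by -0.25 (SE 0.10), Acsbg1 by -0.24 (SE 0.06) and Aldoc by -0.16 (SE 0.07). Gfap had the most negative difference, -0.66 (SE 0.22), with overlap. Among the 4 positive ones, Aqp4, the water channel of astrocytes, differed by 0.06 (SE 0.13) and the glutamate transporter Slc1a2 by 0.16 (SE 0.08).

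The level of Agt was also expressed relative to the mean log2 level of the general astrocyte list in the same mouse. This relative level was -5.65 to -4.73 in MS mice and -3.50 to -2.72 in control mice, a difference of -1.80. Against the list of astrocytes outside the telencephalon it was -6.30 to -5.40 in MS mice and -4.80 to -4.37 in control mice, a difference of -1.08. Against the 13 markers of vessels and mural cells, the difference was -2.07. The groups did not overlap on any of these scales, and since all 3 use the contrast that selected Agt, they restate its difference on another scale and do not test a part of these cells in it.

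Markers listed for pallidal and basal forebrain neurons were also lower in MS mice, 6 of 6 without overlap, against 4.91% of all tested probes. Whether neurons of the NAc itself also express these genes was not examined. The log2 of their sum was 1.99 to 3.05 in MS mice and 3.34 to 4.11 in control mice, a difference of -1.37, also as a description, since these genes were taken in the same way. The rows of the slide gave -1.85 and -0.89. In the hypothalamic and preoptic list the median difference was -0.57, and 5 of 6 tested genes were negative. This list held 3 genes that were lower without overlap, against 4.91% of all tested probes. It holds Lhx5, which 0 of 4 MS arrays and 4 of 4 control arrays detected and which was at least 2.8-fold lower in MS mice, taking the lowest detected signal as the bound. It also holds the neuropeptide genes Pmch (-0.81, SE 0.36), Hcrt (-0.73, SE 0.18), Gal (-0.41, SE 0.11) and Oxt (-0.15, SE 0.49). Trh was the only positive one, at 0.09 (SE 0.12). The sum was 1.64 to 2.01 in MS mice and 1.85 to 2.32 in control mice (exact p = 0.0857, adjusted p = 0.129). It mostly followed the brightest genes, Trh and Gal (mean levels 0.05 and -0.66 in MS mice, -0.04 and -0.25 in control mice). The list was chosen with earlier results of these data known and holds Lhx5, so this p is not independent evidence. Avp was above background on 0 arrays. The part of these cells in the Agt difference was not tested.

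For the other cell types the sums overlapped between groups. The differences of microglia and oligodendrocytes were about the size of that of the general astrocyte list (-0.16). The log2 difference of the sum was 0.07 for vessels and mural cells (25 to 28.2 in MS mice and 24.5 to 26.5 in control mice) and 0.07 for choroid plexus and ependyma (5.86 to 6.39 in MS mice and 5.62 to 6.14 in control mice). It was -0.18 for microglia (43.7 to 50.9 in MS mice and 46.8 to 59.4 in control mice), and 6 of 6 genes were negative. It was -0.14 for oligodendrocytes (154 to 210 in MS mice and 166 to 223 in control mice), where 6 of 6 genes were also negative. The exact p was 0.171, 0.143, 0.0571 and 0.343 for these 4 lists, in this order. In the list of choroid plexus and ependyma, Ttr was not tested. Clic6 was by far its brightest tested gene (mean level 2.4 in MS mice and 2.33 in control mice), so its sum mostly followed this gene.

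**Figure D3:**
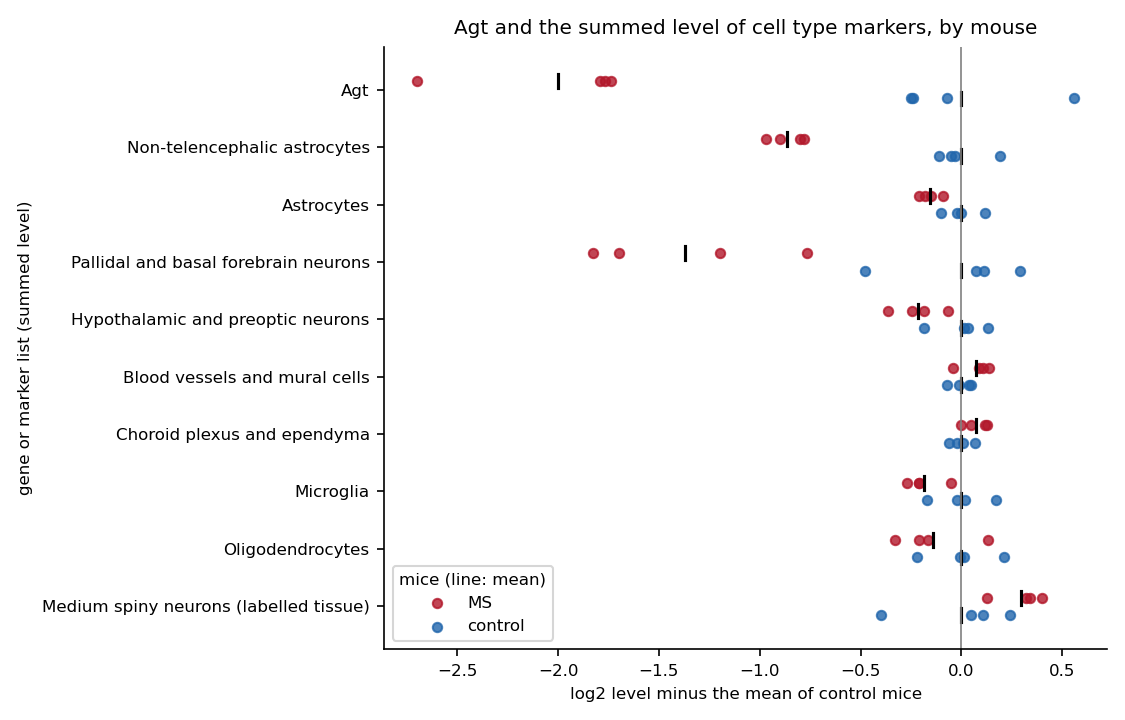
Log2 level of Agt and log2 summed level of 9 marker lists (y axis) in each mouse, minus the control mean (x axis), where points are mice and a line is the group mean (n = 4). The groups are apart for Agt, for astrocytes outside the telencephalon and for pallidal and basal forebrain neurons, and overlap for the other 7 lists.

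Among 14467 named genes with a tested probe, the 5 whose deviations from their own group mean most resembled those of Agt over the 8 mice were Rdh5 (Pearson r = 0.987), Edn1 (0.973), Htr7 (0.954), Derl3 (0.951) and Phkg1 (0.946). This is a description, since 8 mice allow high values among so many genes, and it weighs on the low Agt level of MS 2 and the high level of control 4. Rdh5, a retinol dehydrogenase, and Htr7, a serotonin receptor, were lower in MS mice without overlap, by -0.46 (SE 0.15) and -0.96 (SE 0.21) on the log2 scale. Edn1, which encodes a vasoconstrictor peptide, differed by 0.19 (SE 0.13), Derl3, a protein of the endoplasmic reticulum, by 0.17 (SE 0.15) and Phkg1, a subunit of phosphorylase kinase, by -0.11 (SE 0.10), all with overlap.

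**Figure D4:**
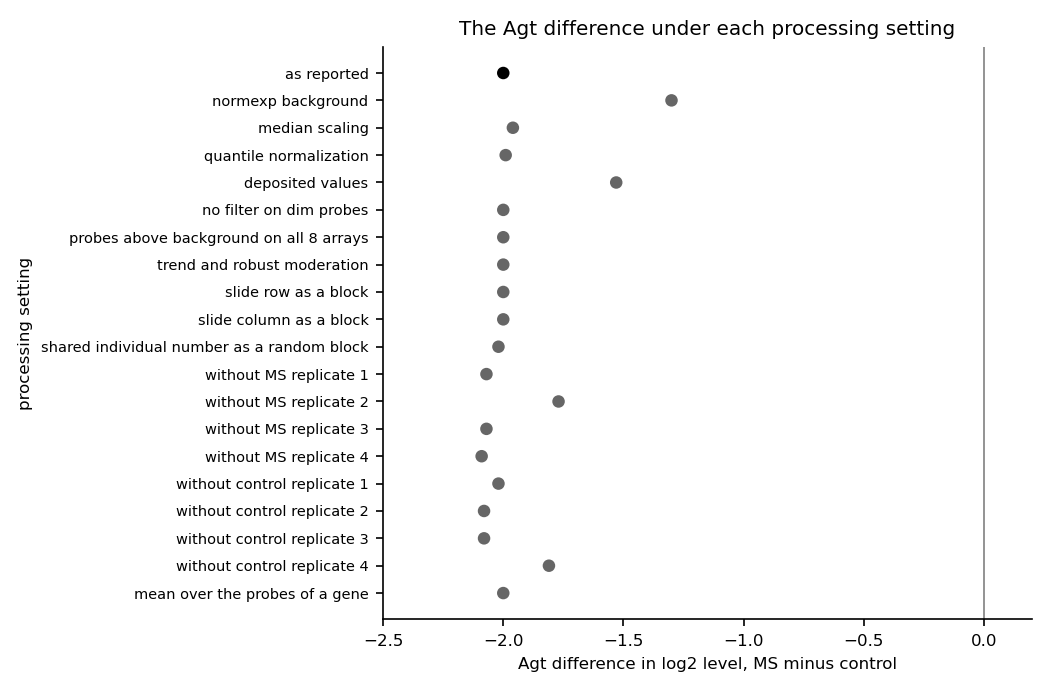
Difference of Agt in log2 level, MS minus control (x axis), for the processing settings named on the y axis, with the value as reported in black. The differences run from -2.09 to -1.30, and the 2 settings nearest 0 are normexp at -1.30 and the deposited values at -1.53.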

How the data were processed

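For 8 one-colour Agilent arrays, 1 per mouse (4 MS, 4 control), the authors deposited scanner output with linear intensity values per spot. Local background had been subtracted with Agilent Feature Extraction 10.10.1.1. The authors also deposited log2 values for 31261 probes, which followed the log2 mean signal of the scanner files (correlation at least 0.9997 per array) with a median of 8.01 in every column. Their scale is thus log2 without background subtraction and they are levels, while their normalization between arrays is not given in the sources used here. The submitters' processing notes also name limma, with no version. The array design in the headers differs from that in the study's methods. Coordinates are those of the headers (mm9).

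Control spots and spots flagged as outliers (122 to 189 per array) were left out, spots of a probe were averaged, and the log2 processed signal minus the array's 75th percentile was the level. No probe was saturated. All arrays were on 1 slide, read in 1 scan. The 33111 of 55681 probes that 4 or more arrays measured well above background were compared with limma 3.58.1 (lmFit, eBayes) in R 4.3.3, with Benjamini-Hochberg adjustment over all of them at 0.05. The script was tested on simulated data. Of the probes, 27235 were named by accession, 3581 by symbol and 565 by an older symbol through RefSeq (GRCm38.p6, names only), and the rest kept the array's name. Where a gene had several probes, the brightest on average stood for it. All renin-angiotensin probes were described, and of the pathway genes the 4 with the smallest p and those not detected on any array were named by rule, and the other pathway genes in the text were chosen after their values were seen. Of the tested pathway genes, 1 is in the counts but not reported by name here. Members and lists were chosen with earlier results of these data known. The number of arrays limits the precision. The p-values set the difference between groups against the spread between these mice. That spread may not be the one between litters, to which MS was assigned.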

Additional observations from a re-analysis of the deposited data

Results flagged for a closer look

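In 2 of the 38 groups of 4 values examined, 1 mouse lay far from the others, where chance alone flags about 1 group in 20. The Agt level of MS 2 was -3.27, with the other 3 MS mice between -2.36 and -2.31, so that the gap to the nearest mouse was 0.947 of the range of the group. The same mouse had the lowest sum of markers of astrocytes outside the telencephalon (96.1) and of pallidal and basal forebrain neurons (3.98). It also had the lowest sum for general astrocytes (356) and microglia (43.7), and the highest for choroid plexus and ependyma (6.39). A link of these sums to its Agt level was not tested. The Ace level of control 1 was -2.78, with the other 3 control mice between -2.39 and -2.32, a gap of 0.856 of the range. Without this mouse the Ace difference was -0.54.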

How the results depend on the processing

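Every alternative kept Agt lower in MS mice. Its difference shrank to -1.30 under normexp and -1.53 in the deposited values. It was between -2.09 and -1.77 with 1 mouse left out, and between -2.02 and -1.96 under the other alternatives. Relative to the general astrocyte list it was -1.34 in the deposited values, -1.13 under normexp, between -1.90 and -1.59 with 1 mouse left out, and -1.08 where astrocytes outside the telencephalon were the list. The count of probes past the threshold of limma was 1 as reported, and it was 486 with normexp, 375 in the deposited values, 504 with trend and robust moderation, 443 with the shared individual number as a random block (estimated correlation -0.114), 113 among probes above background on all 8 arrays, 81 with median scaling, 9 with all probes of a gene averaged, and 0 without the filter on dim probes or with the slide column as a block. With 1 mouse left out the count was 0 to 37, the highest without control 3. The shared individual numbers lie within groups, so a negative correlation makes the errors of that fit smaller. The count of 443 thus does not show that allowing for shared numbers strengthens the result. Pathway genes past the threshold numbered 2 with normexp, 1 in the deposited values and 1 with trend and robust moderation, and 0 with 1 mouse left out. Of the alternatives for Ace, Agtr1a, Ren1, Atp6ap2, Lnpep and Mas1 none moved the difference by more than the spread between mice, although the sign of all of these but Ace and Mas1 changed in at least 1 of them (Agtr1a -0.26 to 0.19, Ren1 -0.49 to 0.15, Atp6ap2 -0.05 to 0.04, Lnpep -0.09 to 0.06). The cause of these changes was not tested. The labels give no replicate numbers that pair mice across the groups, and the slide column, with 1 array of each group, was the only pairing fitted. Signal near background limits Agtr2, Enpep, Ren1 and the kinin genes.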
